A study of Homo sapiens with 9 samples.

Results

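The 6 genes described here belong to the extracellular matrix and were measured by RNA sequencing in the human ovarian cancer line ES-2. They are BGN (biglycan), ABI3BP, AEBP1 and the collagen VI chain genes COL6A1, COL6A2 and COL6A3. They make up 6 of the 32997 genes in the table, with all 6 present. The genes were picked because their measured levels were lower in both overexpression groups than with the empty vector, with the collagen VI chains added as a set, so their differences from the vector are described below without a test. Only the difference between the overexpression groups is tested, since the choice did not use that difference directly. The choice did ask for lower levels in both groups, so it was not wholly independent of their difference. The groups, of 3 libraries each, were cells overexpressing OTUB2, cells overexpressing SNX29P2 and cells carrying an empty vector. All grew untreated in RPMI-1640 with 10% fetal bovine serum. The OTUB2 protein removes ubiquitin from other proteins, and SNX29P2 is a pseudogene related to the sorting nexin SNX29. The labels give neither the vector's promoter nor whether the cells were pools or clones.

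Collagen VI is assembled inside the cell from an α1, an α2 and an α3 chain, and after secretion it forms beaded microfibrils in the matrix around cells. Biglycan is a small leucine-rich proteoglycan that carries chondroitin or dermatan sulfate chains, binds collagens including collagen VI, and can signal through Toll-like receptors when it is set free. AEBP1 encodes ACLP, a secreted carboxypeptidase-like protein that binds fibrillar collagen, and ABI3BP encodes a secreted matrix protein with fibronectin type III repeats. All of these genes are best known from fibroblasts and other connective tissue cells, and many carcinoma cells make some of them.

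Sequence upstream of the gene start is shown for BGN and ABI3BP, the pair furthest below the vector, and for COL6A2, the chain with the largest. RefSeq (GRCh38.p14) gave a start for 4 of the 6 genes, these and COL6A3. Each sequence runs 5′ to 3′ on the gene's own strand and ends at the base before the start that the deposited table lists. That start lies 41 bases before the RefSeq start for BGN, 94 for ABI3BP and 15 for COL6A2. The regions are chrX:153494730-153494938 on the plus strand, chr3:100993516-100993671 on the minus strand and chr21:46097862-46098096 on the plus strand. Capitals mark GC boxes (GGGCGG) and TATA boxes (TATAAA), read on either strand.
BGN: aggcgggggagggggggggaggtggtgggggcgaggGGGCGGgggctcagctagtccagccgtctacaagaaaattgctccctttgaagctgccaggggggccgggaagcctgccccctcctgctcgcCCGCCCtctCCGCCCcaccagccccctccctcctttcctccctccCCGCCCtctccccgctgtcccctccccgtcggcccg
ABI3BP: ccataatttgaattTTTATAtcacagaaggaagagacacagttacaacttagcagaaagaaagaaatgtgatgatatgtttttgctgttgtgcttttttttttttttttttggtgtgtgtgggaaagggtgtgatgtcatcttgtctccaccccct
COL6A2: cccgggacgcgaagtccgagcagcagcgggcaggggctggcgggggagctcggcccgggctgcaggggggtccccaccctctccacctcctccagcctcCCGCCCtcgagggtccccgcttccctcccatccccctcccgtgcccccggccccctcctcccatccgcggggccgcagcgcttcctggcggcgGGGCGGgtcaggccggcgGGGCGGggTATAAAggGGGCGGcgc

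These upstream regions differed in composition. In the 250 bases before the RefSeq start, G and C made up 74.0% for BGN, 79.6% for COL6A2 and 56.0% for COL6A3, but 45.2% for ABI3BP, beside a median of 58.0% over 35116 promoters. In these 250 bases the GC box was found 5 times for BGN, 4 times for COL6A2, once for ABI3BP and 0 times for COL6A3. Of all promoters, 42.6% hold at least 1. The printed sequences end before the RefSeq start, so they show 4 GC boxes for BGN and 0 for ABI3BP. The TATA box stood 32 bases before the start of COL6A2 and, on the opposite strand, 236 bases before that of ABI3BP, and 10.7% of promoters hold it. The core of the hypoxia response element (ACGTG or GCGTG), the AP-1 site (TGANTCA) and the TEAD site (GGAATG), had 0 matches in all 4 windows, against 43.2%, 6.57% and 11.9% of all promoters. The 2 spellings of the hypoxia core were counted as 1 motif, and no searched motif overlapped another in the printed sequences.

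Libraries held 38504854 to 48551215 reads in genes, and 16533 genes with at least 0.5 RPKM (reads per kilobase of gene and per 1000000 reads) in at least 3 libraries were tested. OTUB2 was at 37.6 to 42.6 RPKM in its own group and at 1.04 to 1.58 RPKM in the other 6 libraries, and SNX29P2 at 41.0 to 55.1 RPKM in its own group and at most 0.0665 RPKM elsewhere. CA9, a carbonic anhydrase known as a hypoxia target, was at 0.0900 to 0.198 RPKM with OTUB2 and 0.104 to 0.330 RPKM with SNX29P2, against 2.29 to 6.75 RPKM with the vector. Epithelial keratins were high (KRT7 101 to 141 RPKM, KRT18 101 to 147 RPKM), whereas the ovarian markers PAX8 (0.149 to 0.421 RPKM) and WT1 (0.524 to 1.37 RPKM) were low and NAPSA and EPCAM were at most 0.0270 RPKM. Of the fibroblast markers, 6 of 8 were in the table, and their summed level was 3.05 to 3.65 RPKM with OTUB2, 3.22 to 3.48 RPKM with SNX29P2 and 3.49 to 4.47 RPKM with the vector. Among them PDGFRA was at 1.18 to 2.04 RPKM, FAP at 1.02 to 1.49 RPKM and ACTA2 at 0.455 to 0.838 RPKM. THY1 was at 0.127 to 0.245 RPKM and PDGFRB at most 0.0525 RPKM. The fibroblast collagen COL3A1 was at most 0.00686 RPKM in every library, and the part of the other fibroblast markers in the levels of the 6 genes was not tested. Whether replicate libraries came from separate cultures is not stated in the labels, so the spread behind each p-value may be technical.

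OTUB2 replicate 1 stood apart by leukocyte transcripts. LYZ was at 4.22 RPKM there, against 0.0294 to 0.213 RPKM in the other 8 libraries, and PTPRC was at 0.332 RPKM, against at most 0.00506 RPKM. CD3E (0.282 RPKM) was at 0 in all other libraries. Over the 5 leukocyte markers in the table the sum was 31.2 to 40.3 RPKM with OTUB2, 28.8 to 33.0 RPKM with SNX29P2 and 31.2 to 32.5 RPKM with the vector, most of it CD68. The part of these transcripts in the results was not tested, and the log2 differences, percentages of vector and chain ratios of the 6 genes that rest on this library are given below with and without it.

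BGN lay far below the vector in both overexpression groups. Its level was 2.42, 2.13 and 2.23 RPKM with OTUB2 and 1.73, 1.98 and 1.94 RPKM with SNX29P2, against 6.27, 7.33 and 5.13 RPKM with the vector. All 6 overexpression libraries lay below the lowest vector library, and the vector libraries were also the most spread. The group means were 2.26 ± 0.147 RPKM with OTUB2, 1.88 ± 0.136 RPKM with SNX29P2 and 6.24 ± 1.10 RPKM with the vector (SD, n = 3 each). BGN thus stood at 36.2% of the vector level with OTUB2 and at 30.1% with SNX29P2. On the scale of log2(RPKM + 0.1) the differences were -1.41 and -1.67, and without OTUB2 replicate 1 the first was -1.46. The values rest on 194 to 254 reads per overexpression library and 520 to 692 reads per vector library. The listed gene spans 153494939 to 153509554 on the X chromosome (GRCh38, plus strand) with 8 exon blocks.

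ABI3BP had a similar ratio at a level about an order lower. It was at 0.277, 0.278 and 0.239 RPKM with OTUB2 and 0.236, 0.299 and 0.261 RPKM with SNX29P2, against 0.854, 0.878 and 0.626 RPKM with the vector. The libraries of neither overexpression group overlapped those of the vector, and the 2 overexpression groups lay on top of each other. The means were 0.265 ± 0.0218 RPKM, 0.265 ± 0.0314 RPKM and 0.786 ± 0.139 RPKM with OTUB2, SNX29P2 and vector (SD, n = 3 each), which is 33.7% and 33.8% of the vector level. ABI3BP passed the filter on low values only through the vector group, where all 3 libraries were above 0.5 RPKM, so a difference from the vector was built into its being tested. The log2 difference was -1.27 in both overexpression groups, and -1.29 for OTUB2 without OTUB2 replicate 1. At this level the pseudocount sets much of that size: with 1 in place of 0.1 it was -0.49 in both groups. Between 105 and 148 reads were behind each overexpression value and 284 to 400 behind each vector value. The gene is listed on chromosome 3 from 100749156 to 100993515 (minus strand) with 69 exon blocks.

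AEBP1 differed less, but with little spread. Its levels were 14.1, 15.2 and 15.1 RPKM with OTUB2 and 13.5, 13.9 and 15.4 RPKM with SNX29P2, against 22.8, 20.01 and 19.8 RPKM with the vector. Again no overexpression library reached the lowest vector library. The means of 14.8 ± 0.588 RPKM with OTUB2 and 14.3 ± 1.02 RPKM with SNX29P2 were 70.7% and 68.3% of the 20.9 ± 1.65 RPKM with the vector (SD, n = 3 each). The log2 differences were -0.49 and -0.55, and the OTUB2 value was -0.46 without OTUB2 replicate 1. AEBP1 is listed on chromosome 7 from 44104361 to 44114562 (plus strand, 19 exon blocks).

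**Figure D1:**
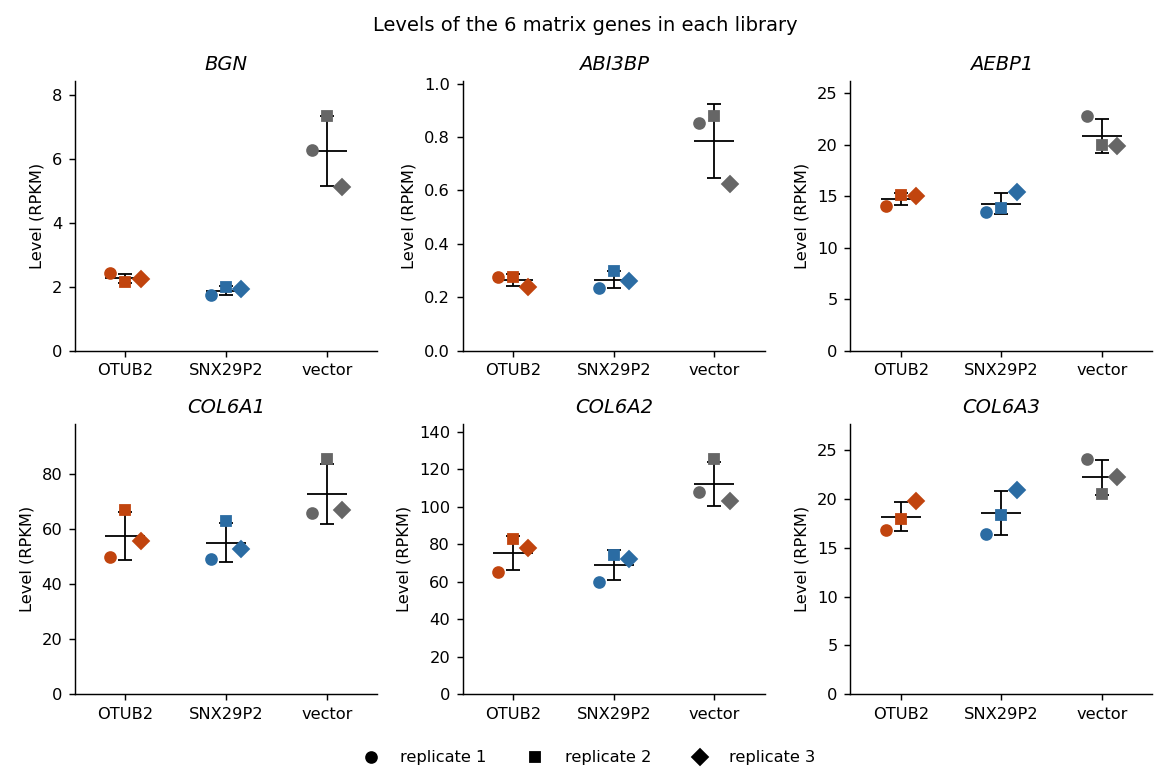
Level of each of the 6 genes in RPKM (vertical axis, linear from 0, a scale of its own per panel) in the OTUB2, SNX29P2 and vector libraries. Points are libraries, with the symbol giving the replicate number, and bars are the mean and SD of 3 libraries. BGN, ABI3BP, AEBP1 and COL6A2 show all overexpression libraries below all vector libraries, while 1 library overlaps for COL6A1 with OTUB2 and for COL6A3 with SNX29P2.

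Among the collagen VI chains, COL6A2 was the furthest below the vector. COL6A2 was at 65.1, 82.8 and 78.2 RPKM with OTUB2 and 59.99, 74.5 and 72.4 RPKM with SNX29P2, against 108, 125 and 103 RPKM with the vector. The groups did not overlap. COL6A2 averaged 75.4 ± 9.18 RPKM with OTUB2, 68.9 ± 7.82 RPKM with SNX29P2 and 112 ± 11.6 RPKM with the vector (SD, n = 3 each), so it stood at 67.2% and 61.4% of the vector level. The log2 differences were -0.58 and -0.70, and the OTUB2 value was -0.47 without OTUB2 replicate 1.

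COL6A1, the gene of the α1 chain, was at 49.8, 66.8 and 55.7 RPKM with OTUB2 and 49.2, 62.8 and 52.7 RPKM with SNX29P2, against 65.7, 85.2 and 66.9 RPKM with the vector. OTUB2 replicate 2 overlapped the vector libraries, and the SNX29P2 libraries all lay below them. The means were 57.4 ± 8.66 RPKM with OTUB2, 54.9 ± 7.09 RPKM with SNX29P2 and 72.6 ± 10.95 RPKM with the vector (SD, n = 3 each), or 79.1% and 75.6% of the vector level. The log2 differences were -0.34 and -0.40. The OTUB2 value was -0.24 without OTUB2 replicate 1 and -0.22 without vector replicate 2.

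COL6A3, whose α3 chain is the longest of the trio, was at 16.9, 17.9 and 19.8 RPKM with OTUB2 and 16.4, 18.4 and 20.9 RPKM with SNX29P2, against 24.1, 20.5 and 22.2 RPKM with the vector. Here it was SNX29P2 replicate 3 that overlapped the vector libraries. The means of 18.2 ± 1.49 RPKM with OTUB2 and 18.6 ± 2.24 RPKM with SNX29P2 were 81.7% and 83.4% of the 22.3 ± 1.80 RPKM with the vector (SD, n = 3 each). The log2 differences were -0.29 and -0.26, and the OTUB2 value was -0.24 without OTUB2 replicate 1. COL6A3 is listed on chromosome 2 from 237324003 to 237414375 (minus strand, 45 exon blocks).

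Counted together, 5 of the 6 genes had no overlap with the vector in each overexpression group, and lower libraries without overlap were found for 4.91% of all tested genes with OTUB2 and 5.53% with SNX29P2. Because the genes were chosen on these contrasts, nothing is read from those shares. Without OTUB2 replicate 1 the mean of the remaining OTUB2 libraries was 34.9% of the vector mean for BGN, 32.9% for ABI3BP, 72.4% for AEBP1, 84.4% for COL6A1, 71.7% for COL6A2 and 84.7% for COL6A3, with COL6A1 still the only overlap. The median log2 difference of the 6 genes was -0.54 with OTUB2 and -0.63 with SNX29P2, beside 0.01 in both comparisons over all tested genes. Both comparisons share the vector libraries. Since RNA was taken from bulk cultures, fewer cells making a transcript and less of it per cell cannot be told apart.

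Per kilobase of listed length the order of the levels was the same by mean in all 3 groups: COL6A2, COL6A1, COL6A3, AEBP1, BGN, ABI3BP. COL6A2 exceeded COL6A1 in every library, yet their ranges over libraries overlapped with OTUB2 and with SNX29P2 and were apart with the vector. COL6A3 and AEBP1 overlapped with the vector and were apart in both overexpression groups. From AEBP1 to BGN and from BGN to ABI3BP the ranges were apart in every group.

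The proportions between chain transcripts also differed. The ratio of COL6A2 to COL6A1 in RPKM was 1.31, 1.24 and 1.40 with OTUB2 and 1.22, 1.19 and 1.37 with SNX29P2, against 1.64, 1.47 and 1.55 with the vector, so that no overexpression library reached the lowest vector library. Its mean was 1.32 ± 0.0823 with OTUB2, 1.26 ± 0.101 with SNX29P2 and 1.55 ± 0.0865 with the vector (SD, n = 3 each). Without OTUB2 replicate 1 the OTUB2 mean was 1.32 again, and it was 3.27 for COL6A1 to COL6A3 and 4.28 for COL6A2 to COL6A3. The ratio of COL6A2 to COL6A1 comes from the same contrasts as the choice of genes and was not tested. The ratio of COL6A1 to COL6A3 overlapped between the groups, at 2.81 to 3.73 with OTUB2, 2.52 to 3.42 with SNX29P2 and 2.73 to 4.16 with the vector. COL6A2 to COL6A3 was 3.86 to 4.62 with OTUB2, 3.46 to 4.05 with SNX29P2 and 4.48 to 6.12 with the vector, where OTUB2 overlapped and SNX29P2 did not. RPKM values are RNA levels, and the ratio of assembled protein chains was not measured.

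**Figure D2:**
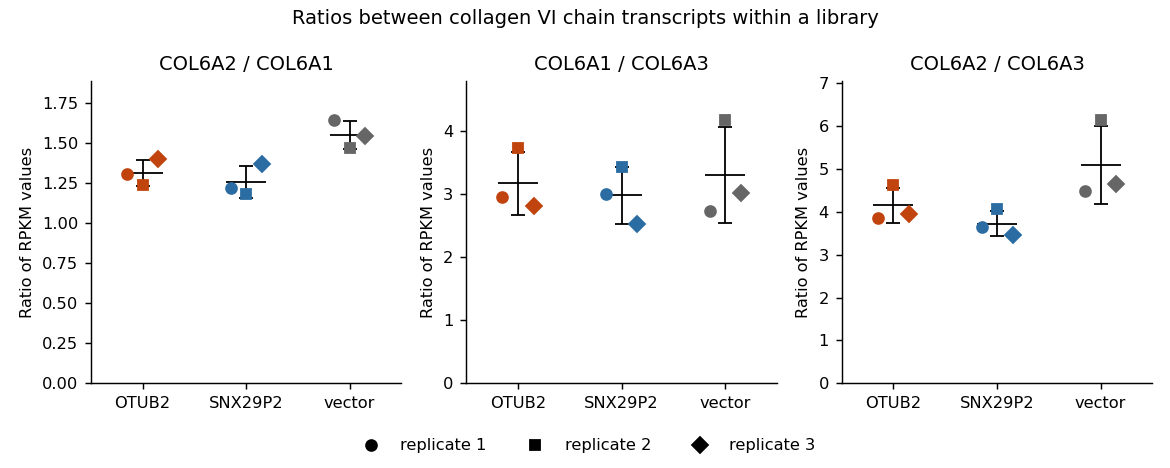
Ratios of RPKM values between the 3 collagen VI chain genes within each library (vertical axis, no unit, from 0) for the OTUB2, SNX29P2 and vector groups. Points are libraries, with the symbol giving the replicate number, and bars are the mean and SD of 3 libraries. COL6A2 / COL6A1 is 1.19 to 1.40 in the 6 overexpression libraries and 1.47 to 1.64 in the vector libraries, while COL6A1 / COL6A3 overlaps between all groups.

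COL6A1 and COL6A2 also varied together inside the groups. The library numbered 2 was the highest in each group for both genes, at 1.27 (OTUB2), 1.23 (SNX29P2) and 1.29 (vector) times the mean of the other libraries of its group for COL6A1 and at 1.16, 1.12 and 1.19 times for COL6A2. COL6A3 did not share this, at 0.977, 0.985 and 0.885 times. For COL6A1, the highest library of a group was 1.34 times the lowest with OTUB2, 1.28 times with SNX29P2 and 1.30 times with the vector, a spread close to the 1.26 and 1.32 times by which the vector mean exceeded the OTUB2 and SNX29P2 means. COL6A1 (chromosome 21, 45981737 to 46005050) and COL6A2 (46098097 to 46132849) both lie on the plus strand with 93046 bases between them. Of 5 genes listed in that interval, 0 reached the level needed for testing.

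Between the overexpression groups none of the 6 genes was called. In OTUB2 against SNX29P2, limma called 0 of the 6 genes, 0 had an unadjusted p under 0.05, and limma's voom on the recovered reads also called 0, where 0.0242% of all tested genes (4 of 16533) were called. BGN was nearest to a difference, with 2.13 to 2.42 RPKM in the OTUB2 libraries and 1.73 to 1.98 RPKM in the SNX29P2 libraries, which do not overlap. Its log2 fold change was 0.25 ± 0.132 (SE), with a 95% interval of -0.04 to 0.55, an unadjusted p of 0.0858 and a Benjamini-Hochberg adjusted p of 1.00 from limma, higher in 3 of 3 OTUB2 libraries. The other intervals, which are not adjusted for the number of genes, give the range of differences that the data allow. For AEBP1 the log2 fold change was 0.05 with an interval of -0.13 to 0.23, and for COL6A3 it was -0.03 with an interval of -0.26 to 0.21. COL6A1 had 0.06 (-0.25 to 0.37) and COL6A2 0.13 (-0.13 to 0.39). ABI3BP, the least expressed, had -0.00 with an interval of -0.60 to 0.60, so that interval does not exclude a difference of up to 0.60 in either direction. Adjusted p was 1.00 for each of these by limma. Without OTUB2 replicate 1 the log2 fold changes were 0.20 for BGN, 0.09 for AEBP1, -0.03 for ABI3BP, 0.16 for COL6A1, 0.23 for COL6A2 and 0.03 for COL6A3. Single libraries moved several of these values by more than 1.5 times: COL6A2 was at 0.03 without SNX29P2 replicate 1, AEBP1 at 0.01 without SNX29P2 replicate 1 and 0.11 without SNX29P2 replicate 3, and the sign of ABI3BP, COL6A1 and COL6A3 changed with the library left out.

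Same-numbered OTUB2 and SNX29P2 libraries deviated together, so a replicate block was also fitted. BGN, COL6A1 and COL6A2 were each higher with OTUB2 in 3 of 3 same-numbered pairs, AEBP1 in 2, and ABI3BP and COL6A3 in 1. With the block the intervals narrowed to -0.04 to 0.17 for COL6A1 and to -0.04 to 0.29 for COL6A2, and that of BGN was -0.05 to 0.56. The block called 0 of the 6 genes, with limma adjusted p of 0.919 for BGN, 0.927 for COL6A1 and 0.919 for COL6A2.

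**Figure D3:**
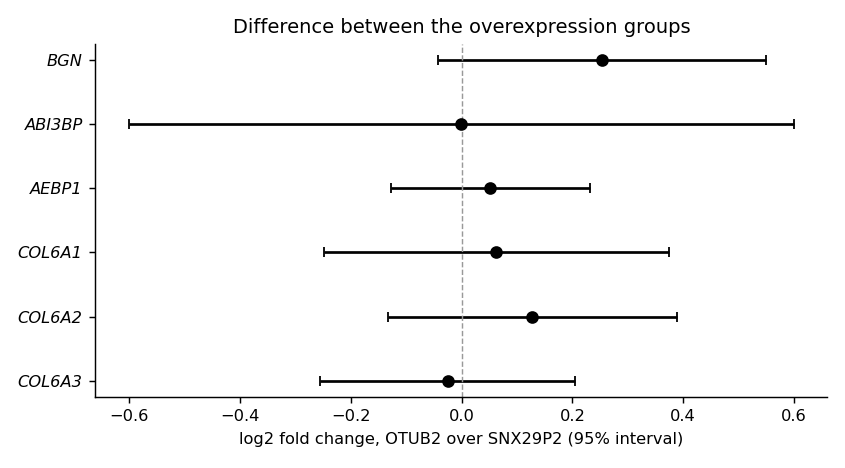
Log2 fold change of OTUB2 over SNX29P2 on log2(RPKM + 0.1) for the 6 genes (horizontal axis), as points with 95% intervals from limma over all 9 libraries. Every interval includes 0, from the narrow one of AEBP1 (-0.13 to 0.23) to the wide one of ABI3BP (-0.60 to 0.60).

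Other genes of the same pathways, and proliferation genes, were taken from 10 lists. Of their 92 distinct tested genes, limma with Benjamini-Hochberg adjustment called 0 in any of the 3 comparisons, and voom on the recovered reads also called 0. Over all tested genes, 0.0181% were called for OTUB2 and 0.0363% for SNX29P2 against the vector. An unadjusted p under 0.05 was found for 12 of the 92 (13.0%) with OTUB2 against vector, beside 6.73% of all tested genes, and for 15 (16.3%) with SNX29P2 against vector, beside 8.21%. With OTUB2 against SNX29P2 it was 1 (1.09%), beside 2.43%. Without vector replicate 3 the list counts were 22 and 26 against the vector (23.9% and 28.3%), beside 11.1% and 10.6% of all genes. Proliferation genes, all higher than with the vector, made up 9 of the 22 and 10 of the 26. With all libraries they made up 2 of the 12 and 3 of the 15. Leaving out the other vector libraries did not raise the list counts: they were 11 and 14 without vector replicate 1, and 10 and 10 without vector replicate 2. With OTUB2, 53 of the 92 were lower and 39 higher than with the vector (median log2 fold change -0.03). With SNX29P2, 59 were lower and 33 higher (median -0.06). Over all tested genes, 48.0% were lower with OTUB2 and 46.4% with SNX29P2. The 92 genes include the 10 proliferation genes, all higher in both comparisons. Leaving out OTUB2 replicate 1 gave 55 lower and 37 higher for OTUB2, again 0 called, and 10 with an unadjusted p under 0.05 (10.9%, beside 4.85% of all genes).

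The list of other small leucine-rich proteoglycans, the relatives of biglycan, had 10 of 16 genes in the table and 1 tested. That gene was TSKU, which encodes tsukushi, at 5.21 ± 0.263 RPKM with OTUB2 and 5.24 ± 0.646 RPKM with SNX29P2, against 6.73 ± 0.983 RPKM with the vector (SD, n = 3 each). Its log2 fold changes were -0.35 and -0.35, with limma adjusted p of 0.686 and 0.543. For the enzymes that build chondroitin and dermatan sulfate, the chains carried by biglycan, 16 of 22 genes were tested and the median was -0.07 with OTUB2 and -0.10 with SNX29P2. CHPF, a chondroitin polymerizing factor, was at 41.8 ± 1.55 RPKM with OTUB2, 39.5 ± 2.91 RPKM with SNX29P2 and 44.6 ± 0.516 RPKM with the vector (adjusted p 0.847 and 0.551 by limma). UST, a uronyl sulfotransferase, was at 3.48, 3.32 and 3.73 RPKM on average with OTUB2, SNX29P2 and vector.

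Biglycan processing and signalling genes numbered 7 tested of 18, with medians of -0.13 and -0.07. PCOLCE, an enhancer of the protease BMP1 that matures procollagens, was at 30.5 ± 2.37 RPKM with OTUB2 and 27.7 ± 1.00 RPKM with SNX29P2, against 33.3 ± 1.65 RPKM with the vector (adjusted p 0.808 and 0.488 by limma). CD44, a cell-surface receptor for matrix, was at 72.4 ± 1.94 RPKM, 70.8 ± 1.92 RPKM and 67.8 ± 3.12 RPKM in the same order of groups.

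Collagen VI receptors and further collagen VI chains gave 8 tested genes of 11, 4 lower and 4 higher in each comparison with the vector. ITGA3, an integrin subunit best known as a laminin receptor, was at 52.5, 59.1 and 55.5 RPKM with OTUB2 and 52.2, 58.2 and 54.9 RPKM with SNX29P2, against 70.0, 80.8 and 63.8 RPKM with the vector, with no overlap. Its log2 fold changes of -0.36 ± 0.0900 and -0.37 ± 0.0900 (SE) had limma adjusted p of 0.532 and 0.488. ITGA2, the α subunit of a collagen-binding integrin, was at 8.37 ± 0.578 RPKM, 7.91 ± 0.508 RPKM and 7.04 ± 0.833 RPKM with OTUB2, SNX29P2 and vector, the opposite direction.

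Genes for collagen hydroxylation, folding and export were all tested, 20 of 20, with medians of -0.03 and -0.07. FKBP10, a prolyl isomerase of the endoplasmic reticulum that assists collagen folding, was at 62.8 ± 1.43 RPKM with OTUB2 and 59.7 ± 1.04 RPKM with SNX29P2, against 69.6 ± 1.41 RPKM with the vector (adjusted p 0.677 and 0.488 by limma). P3H3, of the prolyl 3-hydroxylase family, was at 8.89 ± 0.258 RPKM, 8.49 ± 0.667 RPKM and 10.5 ± 0.450 RPKM in those groups. Both genes had no overlap with the vector in either overexpression group, and neither passed the adjusted test.

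Of the fibrillar collagens, to which the AEBP1 product binds, 4 of 11 were tested. COL1A1 was at 59.3 ± 9.93 RPKM with OTUB2 and 55.6 ± 9.75 RPKM with SNX29P2, against 72.1 ± 12.0 RPKM with the vector, and the groups overlapped (adjusted p 0.814 and 0.603 by limma). COL27A1 was at 2.53 ± 0.208 RPKM, 2.79 ± 0.212 RPKM and 2.97 ± 0.0526 RPKM with OTUB2, SNX29P2 and vector. Among the metallocarboxypeptidase relatives of AEBP1, 2 of 7 were tested: CPM averaged 0.725, 0.733 and 0.891 RPKM and CPD 5.84, 6.08 and 6.11 RPKM in those groups.

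FN1, the fibronectin gene, stood in the list of partners of ABI3BP, of which 5 of 6 were tested. FN1 was at 79.4, 102 and 98.9 RPKM with OTUB2 and 76.4, 103 and 97.2 RPKM with SNX29P2, against 125, 135 and 111 RPKM with the vector, without overlap. Its log2 fold changes were -0.41 ± 0.132 and -0.43 ± 0.132 (SE), with limma adjusted p of 0.668 and 0.502. ABI1, an adaptor of actin remodelling, was at 14.9 ± 0.273 RPKM, 15.6 ± 0.623 RPKM and 14.1 ± 0.756 RPKM with OTUB2, SNX29P2 and vector. In the TGF-β list 19 of 21 genes were tested, 13 lower and 6 higher in each comparison with the vector. LTBP2, a matrix protein of the latent TGF-β binding family, was at 20.5 ± 2.39 RPKM with OTUB2 and 21.5 ± 1.64 RPKM with SNX29P2, against 26.0 ± 2.04 RPKM with the vector (adjusted p 0.613 and 0.551 by limma).

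Proliferation genes were the one list that lay on the other side in full. All 10 were higher than with the vector in both comparisons, with medians of 0.31 and 0.29, and 0 were called. MKI67 was at 43.4 ± 3.44 RPKM with OTUB2 and 44.2 ± 4.05 RPKM with SNX29P2, against 34.8 ± 5.80 RPKM with the vector (adjusted p 0.704 and 0.539 by limma), and BIRC5 at 34.8 ± 2.08, 32.3 ± 1.79 and 27.4 ± 5.49 RPKM. The medians rested on single vector libraries: without vector replicate 2 they were 0.10 (OTUB2) and 0.11 (SNX29P2), with 8 and 9 genes higher, and without vector replicate 3 they were 0.48 and 0.44. The part of proliferation in the levels of the 6 genes was not tested.

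**Figure D4:**
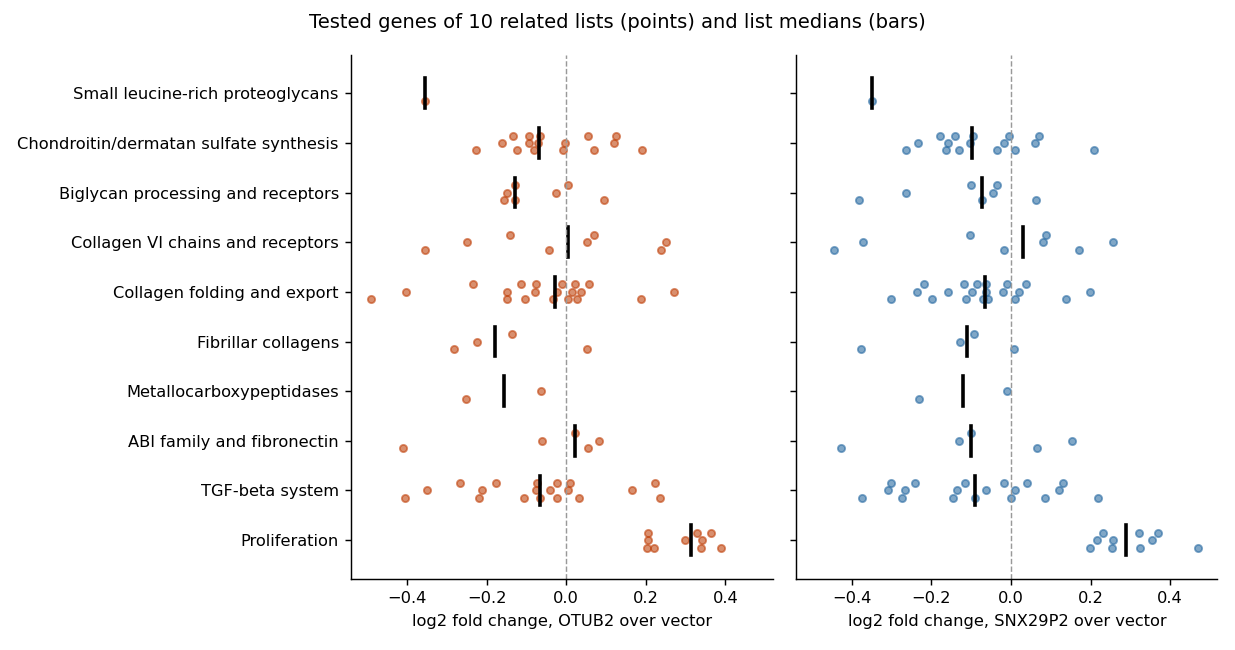
Log2 fold changes over the vector on log2(RPKM + 0.1) for the tested genes of 10 lists (points), with OTUB2 on the left and SNX29P2 on the right and 1 list per row, and black bars at the list medians. Most lists lie around 0, and all 10 proliferation genes lie above 0 in both panels; 0 of these genes were called.

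Genes next to the 6 on their chromosomes were tested as well. The nearest tested gene on each side and every gene overlapping a member gave 11 genes, of which limma called 0 in any comparison. Over all tested genes, 0.0181% were called with OTUB2 and 0.0363% with SNX29P2 against the vector, and 0.0242% between them. By limma, an unadjusted p under 0.05 was found for 2 of the 11 against the vector with OTUB2, 2 with SNX29P2 and 0 between them. The shares over all tested genes were 6.73%, 8.21% and 2.43%. HAUS7, a subunit of the augmin complex, lies on the opposite strand and overlaps the BGN span by 578 bases with 0 exonic bases shared. It was at 6.41 ± 0.453 RPKM with OTUB2 and 6.25 ± 0.143 RPKM with SNX29P2, against 6.52 ± 0.260 RPKM with the vector, with log2 fold changes of -0.03 and -0.06. TREX2 and FAM58A, further from BGN, had -0.03 and -0.05, and 0.05 and -0.08. The span of TREX2 overlaps that of HAUS7 on the same strand, and their reads were nearly equal in each library. With OTUB2, TREX2 had 1027, 1149 and 1075 reads and HAUS7 had 1037, 1181 and 1098. HAUS7 and TREX2 need therefore not be separate measurements. POLD2, a DNA polymerase delta subunit that ends 118 bases from AEBP1 on the other strand, had -0.05 in both comparisons, and POLM, on the other side of AEBP1, had 0.16 and 0.01. TFG, 189 bases from the end of ABI3BP, was at 31.3 ± 0.427 RPKM, 31.4 ± 1.41 RPKM and 31.6 ± 2.29 RPKM with OTUB2, SNX29P2 and vector, and SENP7 had log2 fold changes of 0.01 and 0.09.

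Around the collagen VI genes the neighbours were less even. AJ011932.1, 6783 bases before COL6A1 on the same strand, was at 0.811, 0.930 and 1.40 RPKM with OTUB2 and 1.36, 1.18 and 1.37 RPKM with SNX29P2, against 0.756, 0.503 and 0.780 RPKM with the vector. Its direction was opposite to that of COL6A1, at log2 fold changes of 0.54 and 0.87 with limma adjusted p of 0.720 and 0.488, on 9 to 30 reads per library. SPATC1L, 28298 bases beyond COL6A2, had -0.23 and -0.41 (adjusted p 0.788 and 0.502 by limma). AC112721.1, 7044 bases upstream of COL6A3 on the same strand, was at 17.1 ± 2.36 RPKM with OTUB2 and 17.7 ± 3.48 RPKM with SNX29P2, against 22.9 ± 3.74 RPKM with the vector, with log2 fold changes of -0.42 and -0.38 (adjusted p 0.712 and 0.611 by limma). COPS8, on the other side of COL6A3, had 0.07 in both.

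**Figure D5:**
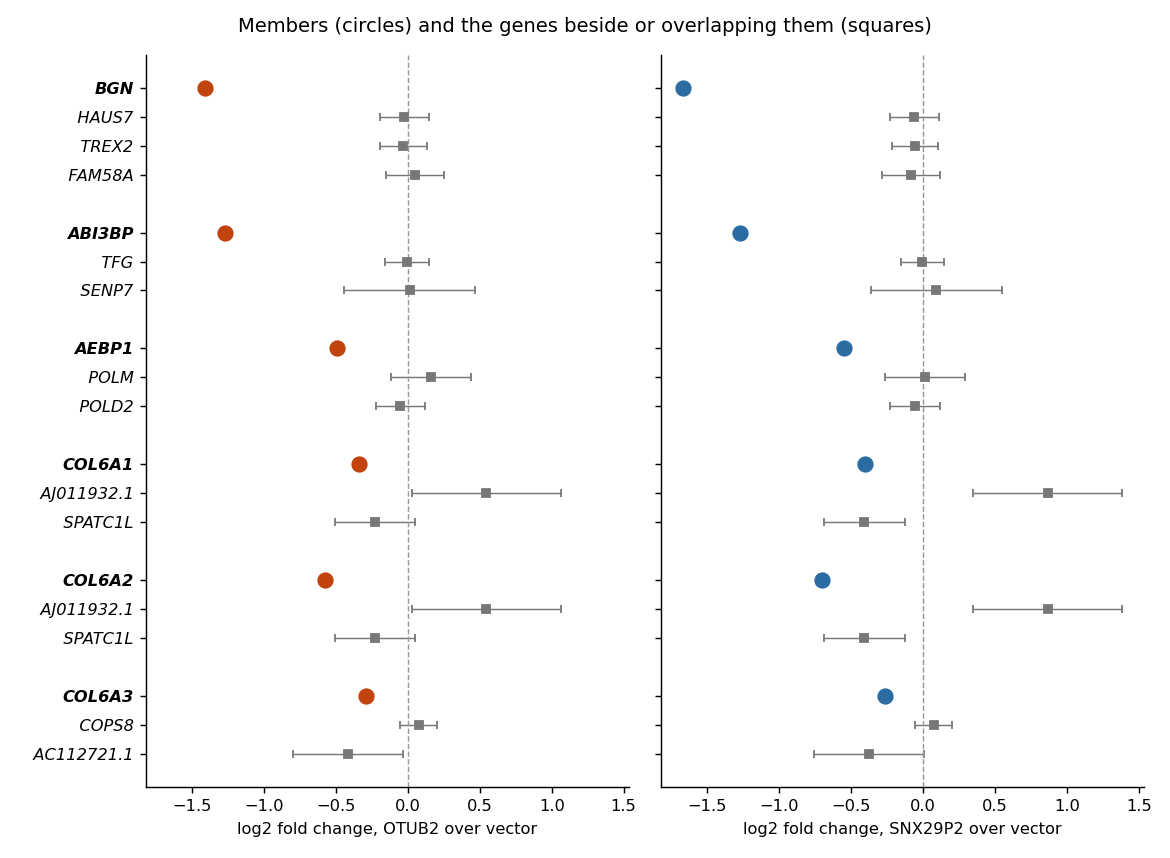
Log2 fold changes over the vector on log2(RPKM + 0.1) for the 6 genes (circles, no interval since they were chosen on these contrasts) and for the genes beside or overlapping them (squares with 95% intervals from limma), with OTUB2 on the left and SNX29P2 on the right. The neighbours of BGN, ABI3BP and AEBP1 lie between -0.08 and 0.16, while AJ011932.1 beside COL6A1 lies at 0.54 and 0.87.

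Likeness of pattern was measured as the root mean square difference between log2(RPKM + 0.1) profiles over the 9 libraries, each centred on its own mean, against the 14096 other genes averaging 1 RPKM or more (14097 for ABI3BP). For ABI3BP the nearest of all was BGN (0.181), then QPRT (0.210), an enzyme of NAD synthesis, and AC009133.22 (0.233). The genes nearest to BGN were ALDOC (0.326), a glycolytic aldolase, QPRT (0.334) and AC009133.22 (0.353). ABI3BP itself, at 0.181, is nearer to BGN than these but lies under the 1 RPKM limit for candidates. Both BGN and ABI3BP were chosen for lower levels in both overexpression groups, so their likeness is partly built in. ALDOC was at 0.757, 1.03 and 0.924 RPKM with OTUB2 and 0.834, 1.17 and 0.926 RPKM with SNX29P2, against 2.02, 3.35 and 1.47 RPKM with the vector.

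Near to AEBP1 in profile were RP11-67L3.5 (0.0934) and PXDN (0.09996), a peroxidase that crosslinks collagen IV. The genes nearest to COL6A1 were COL1A1 (0.0619), KCNG1 (0.0680) and DKK3 (0.0808). COL1A1 shared with COL6A1 the high library numbered 2, at 49.3, 69.2 and 59.3 RPKM with OTUB2, 45.5, 65.0 and 56.3 RPKM with SNX29P2 and 64.6, 86.0 and 65.7 RPKM with the vector. COL6A2 ranked only at 267 for COL6A1 (0.152), whereas for COL6A2 the genes AEBP1 (0.145) and COL6A1 (0.152) ranked at 6 and 9. COL6A3 was nearest to AEBP1 among the 6 (0.135) and further from COL6A1 (0.216) and COL6A2 (0.232). These distances depend on how far a gene moved as well as on its pattern, and they carry no test. Since the choice of genes used the same pattern, likeness among the 6 is a description only.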

How the data were processed

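The values are RPKM as deposited by the authors, that is reads scaled to gene length and to 1000000 reads in genes, in a single table that also lists exons, per the file headers. The genome build is GRCh38 (from the submitters' processing notes). Aligner, counter, strand setting and annotation were not given in the sources used here. RPKM times gene length gave whole reads for 100% of values below 1000 reads (tolerance 0.05 reads), which supplied the depths. Of those values 58.1 to 60.4% were even, so reads need not be independent molecules. 25 names turned into dates were left unnamed.

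Libraries were grouped by the genotype in the labels. The 16533 genes reaching 0.5 RPKM in 3 libraries or more were fitted as log2(RPKM + 0.1) in 1 limma model (3.58.1, R 4.3.3, trended variance), in which group was the single term and all 9 libraries entered. Calls needed a p under 0.05 after Benjamini-Hochberg adjustment over all tested genes. Fold changes on this scale understate those of low genes. The design had named a count test in case the table held counts, which it did not. The code was tested on simulated data. Promoters came from RefSeq (GRCh38.p14). Tables and plots used python 3.11.15, pandas 2.3.3, numpy 2.4.6, scipy 1.17.1 and matplotlib 3.10.9.

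The 6 genes and 14 lists (10 of pathways, 4 of cell type markers) were chosen with earlier results of these data known. Named beside the 6 genes were OTUB2, SNX29P2, CA9, up to 3 called genes per pathway list or else the 2 with the smallest p against the vector, all flanking genes, and the 3 most similar profiles to BGN, AEBP1, ABI3BP and COL6A1; some genes that these rules or lists name are not reported here. Of 171 list entries 15 were not matched and are not analysed here. Alternatives were pseudocounts of 1 and 0.01, no filter, 1 RPKM in 6 libraries, median-of-ratios scaling, only the compared groups, a replicate block, a robust fit, each library left out and, chosen after seeing the data, voom on recovered reads. Deviations from the group means of same-numbered OTUB2 and SNX29P2 libraries correlated at 0.153 to 0.270 over 3 pairs, against -0.230 to -0.0306 over the 6 others. Because deviations within a group sum to 0, the negative values partly follow from the positive ones. Results with libraries paired by number (the replicate block) are given beside the main fit for OTUB2 against SNX29P2. The main fit itself did not pair libraries. The pairing was taken from the data and not from the labels.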

Additional observations from a re-analysis of the deposited data

How the results depend on the processing

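All 6 genes kept a lower level than the vector in both comparisons under every alternative that gave a value, with log2 differences of -1.54 to -1.14 (OTUB2) and -1.80 to -1.32 (SNX29P2) for BGN, -1.55 to -0.49 and -1.56 to -0.49 for ABI3BP, -0.53 to -0.43 and -0.60 to -0.48 for AEBP1, -0.45 to -0.22 and -0.50 to -0.28 for COL6A1, -0.65 to -0.47 and -0.76 to -0.61 for COL6A2, and -0.35 to -0.23 and -0.35 to -0.18 for COL6A3. ABI3BP had no value with the filter of 1 RPKM in 6 libraries or without a vector library, since it then failed the filter. Between OTUB2 and SNX29P2 the sign of ABI3BP turned with a pseudocount of 0.01 (0.000163), median-of-ratios scaling (0.00235) and voom (0.0117), and leaving out libraries gave -0.058 to 0.065 for ABI3BP, -0.052 to 0.16 for COL6A1, -0.11 to 0.063 for COL6A3, 0.031 to 0.23 for COL6A2, 0.012 to 0.11 for AEBP1 and 0.20 to 0.29 for BGN; the lowest adjusted p of any of the 6 was 0.911 by limma. Against the vector, leaving out libraries also turned the sign of HAUS7 (-0.083 to 0.00398, OTUB2), TFG (-0.069 to 0.029 for OTUB2 and -0.065 to 0.032 for SNX29P2), CPD (-0.088 to 0.048, SNX29P2) and ENG (-0.037 to 0.039, SNX29P2), all near 0. Over all genes, OTUB2 against vector had 3 calls, 7 with no filter, 1 with only the compared groups and 1 to 7 with a library left out. SNX29P2 against vector had 6 calls, 1 with the filter of 1 RPKM in 6 libraries, 10 by voom and 1 to 7 with a library left out. OTUB2 against SNX29P2 had 4, 1 with that filter and 1 to 5 with a library left out. The causes of these changes were not tested, and the stricter filter also left fewer genes and each omission fewer samples. With a replicate block the counts were 4, 9 and 4. Against the vector, same-numbered libraries correlated at 0.0506 to 0.193 (OTUB2) and -0.0178 to 0.151 (SNX29P2). Different-numbered ones correlated at -0.143 to 0.00701 and -0.153 to 0.0502, so the ranges were apart for OTUB2 and overlapped for SNX29P2. The main fit did not take the numbers as pairs in either comparison with the vector, nor between the overexpression groups. With the block, the comparisons with the vector gave 22 and 24 list genes with an unadjusted p under 0.05 by limma, beside 11.7% and 13.7% of all genes. Between the overexpression groups the block gave 4. It changed no call of the 6 genes between OTUB2 and SNX29P2. Low counts limit ABI3BP and AJ011932.1 most.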

Other observations

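Some transcripts of the vessel wall were measured at high level in these cells. ENG, a TGF-β co-receptor best known from endothelium, was at 139, 134 and 136 RPKM with OTUB2 and 123, 111 and 117 RPKM with SNX29P2, against 116, 116 and 119 RPKM with the vector. The OTUB2 libraries did not overlap with either other group, but the difference did not pass the adjusted test: the log2 fold change was 0.22 ± 0.0538 (SE) against the vector and 0.22 ± 0.0538 against SNX29P2, with limma adjusted p of 0.507 and 1.00. CDH5, the gene of the endothelial cadherin, was at 17.6 to 23.6 RPKM over the 9 libraries. The other genes of the endothelial list were low: KDR was at 0.172 to 0.328 RPKM, PECAM1 at most 0.125 RPKM, TEK at most 0.0313 RPKM and VWF at most 0.00408 RPKM. ENG is not part of that list. Libraries of the 3 groups had the summed list at 22.2 to 22.8 RPKM (OTUB2), 20.7 to 22.7 RPKM (SNX29P2) and 17.8 to 23.9 RPKM (vector), most of it CDH5.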
